A study of Homo sapiens with 9 samples.

Results

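The genes described here are 31 transcriptional targets of p53, chosen by name from the known pathway and found on the arrays through their current or earlier gene symbol. All 31 had a probe, out of 17559 named genes on the array, and TIGAR was found under its earlier symbol C12orf5. Of these, 27 passed the filter on dim probes, which required a probe to be detected on at least 5 of the 9 arrays. PLK2 and SPATA18 were detected on 0 arrays, TP53INP1 on 3 and EDA2R on 4, so these 4 genes entered no comparison.

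p53 is a transcription factor that DNA damage and other stresses stabilise, and MDM2, itself a target, marks it for degradation. Its targets arrest growth, repair DNA, adjust metabolism, start or restrain cell death and feed back on p53. The best known of them, CDKN1A, encodes the cyclin-dependent kinase inhibitor p21 and is a known direct target of the miR-17 family. The arrays were read for whether p53 output moved on the arrays where CDKN1A was low.

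The study's design text asks how RNA modification affects miRNAs. RKO is a human colorectal cancer line. Cells of this line whose DICER gene, which encodes the enzyme that makes mature miRNAs, was disrupted at exon 5 received double-stranded RNA oligonucleotides by lipofection. Per the labels, total RNA was collected at 48 h after transfection. The groups were miR-200c methylated, miR-200c native, miR-21 methylated, miR-21 native, let7a methylated, let7a native, miR-17 methylated, miR-17 native and a negative control oligonucleotide, with 1 array each. All 9 groups, the negative control included, share the DICER disruption and the transfection. The labels give no clone of the line, no strand of the oligonucleotides, no methylated base and no sequence of the control. No label names a group treated to change p53, so the arrays do not check the label p53 target, which rests on the literature.

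The sequences of the 4 introduced miRNAs show what separates the groups. They are the mature human miRNAs of RefSeq (GRCh38.p14), and the arms shown are the commonly studied ones, since the labels name no arm. Capitals mark the seed, bases 2 to 8, through which a miRNA pairs with its targets.
hsa-miR-200c-3p: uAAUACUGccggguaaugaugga
hsa-miR-21-5p: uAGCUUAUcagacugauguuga
hsa-let-7a-5p: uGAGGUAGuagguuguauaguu
hsa-miR-17-5p: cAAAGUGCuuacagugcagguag
No 2 of them share a seed. They are encoded at chr12:6963742-6963764 (MIR200C, plus strand), chr17:59841273-59841294 (MIR21, plus strand) and chr13:91350618-91350640 (MIR17, plus strand), and let-7a-5p by 3 genes, MIRLET7A1 on chromosome 9, MIRLET7A2 on chromosome 11 and MIRLET7A3 on chromosome 22.

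Values are log2 intensities after background correction and quantile normalization, and differences are on the same scale. Detected probes made up 69.4% to 78.2% of each array, and 7 of the 8 colorectal epithelial markers on the array were detected on all 9 arrays. The other, KRT19, was detected on 1. Of 7 markers of blood, fibroblast and endothelial cells, CD14, CD3E and DCN were detected on all 9 arrays by at least 1 probe. A second probe of CD3E and of DCN was detected on 0. VWF was detected on 7 arrays, COL3A1 on 1, and COL1A1 and PTPRC on 0. The part of these markers in the results was not tested. The arrays of 1 miRNA did not all resemble each other. Each feature was centred over the 4 native arrays and over the 4 methylated ones, and arrays were correlated across 16072 features. Pearson's r was 0.70 between miR-200c methylated and native and 0.46 between miR-21 methylated and native. Within let7a, as labelled, r was -0.22, and within miR-17 it was -0.16. Instead, the methylated array with the let7a label resembled miR-17 native (r = 0.69), and the methylated array with the miR-17 label resembled let7a native (r = 0.56). These correlations describe arrays over features that do not vary independently. The labels were not changed, both methylated arrays are called doubtful in what follows, and results are given with and without them.

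The p53 targets lay on both sides of the negative control with each miRNA, and they were not tested as a set. Over both arrays of a label, 20 of 27 were above the control with let7a (8107 of 16072 features) and 10 with miR-21 (8402 features). Against the other 3 miRNAs, 19 of 27 were higher with let7a (7137 features) and 8 with miR-21 (8183). The let7a counts include its doubtful methylated array, and the counts against the other 3 miRNAs rest on both doubtful arrays. On let7a native alone, 16 of 27 were above the control (8135 features). Over 7 alternative settings, 29.6% to 55.6% of the members lay below the control on let7a native. Median scaling put their median difference there at -0.018. Of all features, 44.3% to 49.2% lay below the control on a single miRNA array. Of the 27 genes, between 8 (array labelled let7a methylated) and 15 (miR-200c methylated and miR-21 native) lay below it. Their median difference from the control ran over the 8 arrays from -0.05 (miR-21 native) to 0.10 (array labelled let7a methylated), while that of all 16072 features lay between 0.002 and 0.016. Single members lay further from the control than the median feature. The median absolute difference of the 27 genes was 0.092 to 0.194 per array, against 0.069 to 0.094 over all features. The background correction shrinks differences of dim probes, and members were at no point compared with features of like brightness. Among the patterns described by role in what follows, DDB2, RPS27L, TP53I3 and FDXR were above the control on all 8 miRNA arrays, GADD45A was low with miR-200c, and SERTAD1 was lowest on the 2 arrays where CDKN1A was lowest. Other members, such as MDM2, RRM2B, PHLDA3 and TIGAR, lay far from the control on 1 or 2 arrays. In a bulk RNA sample fewer cells that express a gene and less RNA per cell cannot be told apart.

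**Figure D1:**
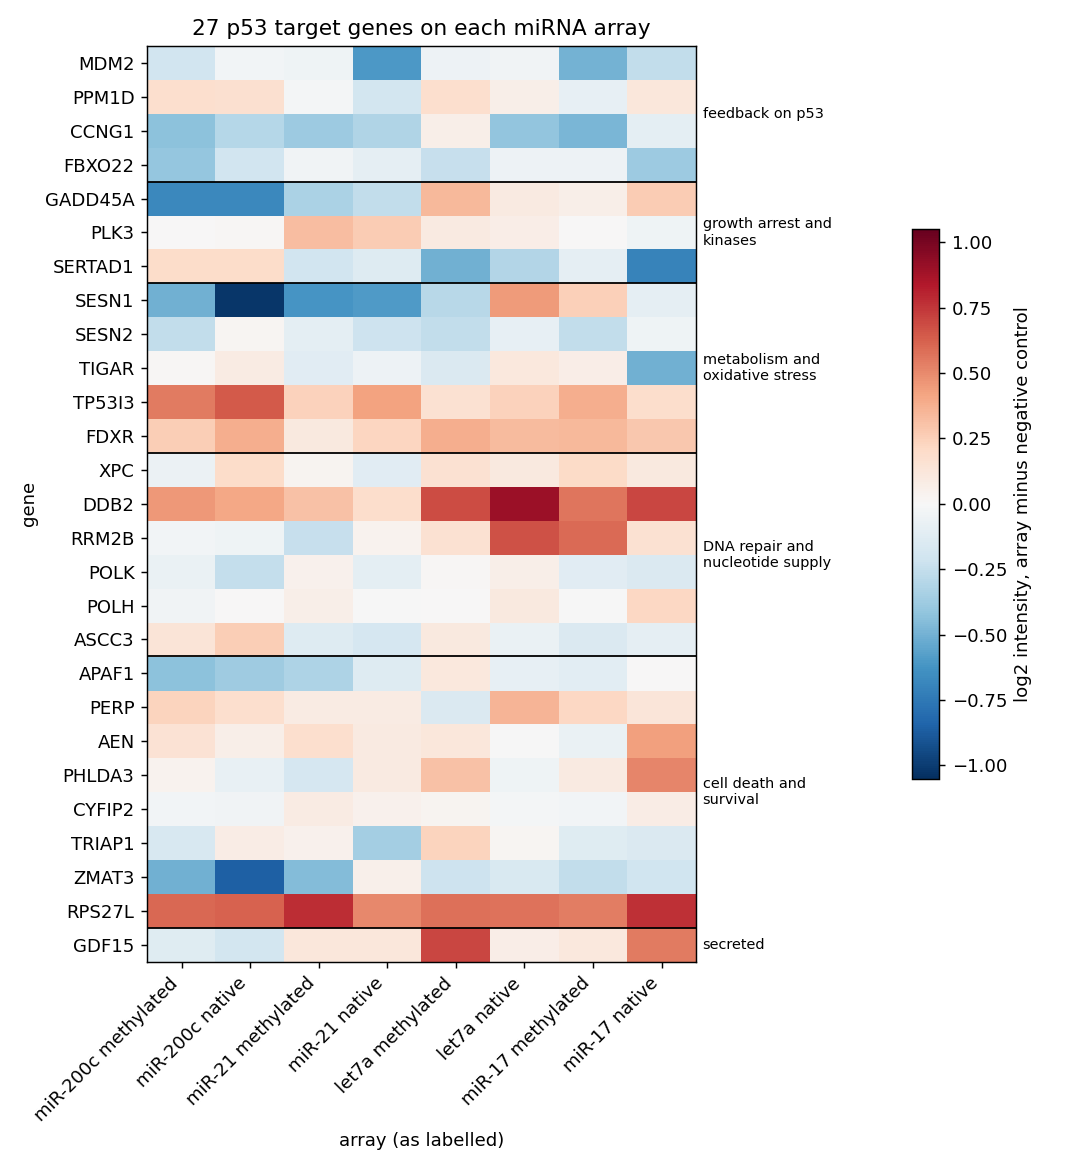
Log2 intensity of each miRNA array minus the negative control for the 27 p53 target genes past the filter (rows, grouped by role; columns, the 8 arrays as labelled, 1 array per group). RPS27L and DDB2 are red across all 8 columns, and GADD45A is blue in the miR-200c and miR-21 columns.

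In the test across features, 1 miRNA was set against the mean of the other 3 in a limma fit over the 8 miRNA arrays. With miR-200c, 1 of the 27 genes passed a Benjamini-Hochberg adjusted p of 0.05, and 3.09% of all features did (497 of 16072, 321 lower and 176 higher). That member was GADD45A. With miR-21, let7a and miR-17, 0 of the 27 genes and 0 of the 16072 features passed (0% each) in limma. Unadjusted p-values under 0.05 were found for 3 members and 1139 features with miR-21, 4 members and 1030 features with let7a, and 1 member and 982 features with miR-17. Against the single negative control, limma called 0 members with miR-200c, where 0.0373% of features passed, and 0 members and 0% of features with miR-21, let7a, miR-17 or the mean of all 4. An unadjusted p under 0.05 was found there for 6 members and 1625 features with miR-200c, 1 member and 556 features with miR-21, 2 members and 605 features with let7a, 2 members and 623 features with miR-17, and 3 members and 618 features with the mean of all 4. The control is 1 array, shared by all these comparisons and assumed to vary like the others, and since nothing says that arrays are separate cultures, the p-values measure the spread between these arrays only.

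A fit without the 2 doubtful methylated arrays leaves 1 residual degree of freedom. let7a and miR-17 are then 1 native array each, as the control is, and they are assumed to vary like the pairs of miR-200c and miR-21, which alone give the spread. In this fit limma called 8 members with miR-200c against the other 3 (14.8% of features passed), 1 with miR-21 (1.82%), 2 with let7a (3.22%) and 2 with miR-17 (6.48%). It called 5 members with miR-200c against the negative control (8.34%), 0 with miR-21 (0.622%), 1 with let7a (1.18%), 1 with miR-17 (2.3%) and 0 with the mean of all 4 (0.815%), and 0 between methylated and native (0.0187%). The 5 called with miR-200c against the control were GADD45A, SESN1, TP53I3, APAF1 and GDF15, the 1 with let7a was DDB2 and the 1 with miR-17 was GDF15, so the calls with let7a and miR-17 set 1 array against 1. The others are named by role in what follows.

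Of the genes that feed back on p53, MDM2, CCNG1 and FBXO22 sat mostly below the negative control and none passed a test. MDM2, the ubiquitin ligase that degrades p53, had log2 intensities of 9.76 methylated and 9.93 native with miR-200c, 9.92 methylated and 9.36 native with miR-21, 9.91 labelled methylated and 9.93 native with let7a, 9.47 labelled methylated and 9.71 native with miR-17, against 9.97 with the negative control. All 8 miRNA arrays were below the control, by 0.03 at the least (miR-200c native) and most on miR-21 native, at -0.60, while the miR-21 methylated array differed from the control by -0.04. In the authors' deposited table of processed values, which puts the median of all features up to 0.54 above the control, MDM2 lay above the control on 4 of 8 arrays. The mean of the 4 miRNAs minus the control was -0.22 for MDM2 (SE 0.23, limma adjusted p = 0.9998).

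CCNG1 encodes cyclin G1, which recruits a phosphatase to MDM2. It had log2 intensities of 9.92 methylated and 10.05 native with miR-200c, 9.97 methylated and 10.04 native with miR-21, 10.41 labelled methylated and 9.94 native with let7a, 9.88 labelled methylated and 10.25 native with miR-17, against 10.35 with the negative control. It was below the control on 7 arrays and above it, by 0.06, on the array labelled let7a methylated, where median scaling instead gave -0.03. A second probe of CCNG1 had 9.15 methylated and 9.20 native with miR-200c, 9.12 methylated and 9.26 native with miR-21, 10.00 labelled methylated and 9.24 native with let7a, 9.24 labelled methylated and 9.59 native with miR-17, against 9.57 with the negative control, with the highest value again on the array labelled let7a methylated. FBXO22, a ubiquitin ligase subunit known to act on p53 bound to a demethylase and named here after its values were seen, differed from the control by -0.40 to -0.04 and was below it on all 8 arrays. PPM1D, the phosphatase that switches the damage response off, ranged over 0.37 on the 9 arrays, with 3 miRNA arrays below the control. Over all features, 6.91% were below the control on all 8 arrays, and 2 of the 27 members were (7.41%).

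Among the genes of growth arrest and kinases, GADD45A fell with miR-200c. GADD45A encodes a stress sensor that binds the replication clamp and stress kinases and slows the cell cycle at the G2 to M step. Its log2 intensities were 9.41 methylated and 9.40 native with miR-200c, 9.75 methylated and 9.83 native with miR-21, 10.43 labelled methylated and 10.18 native with let7a, 10.14 labelled methylated and 10.36 native with miR-17, against 10.09 with the negative control. Both miR-200c arrays were the lowest of the 9, both miR-21 arrays came next, and the arrays labelled let7a and miR-17 were above the control, except that median scaling put let7a native 0.01 below it. GADD45A fell by 0.71 on the log2 scale with miR-200c relative to the other 3 miRNAs (SE 0.13, limma adjusted p = 0.0421, with 2 arrays against 6). Relative to the negative control the miR-200c difference was -0.68 (SE 0.20, limma adjusted p = 0.284). The estimate against the other 3 stayed between -0.76 and -0.62 over 19 alternative settings, of which 11 kept the call. It was lost without miR-200c methylated (limma adjusted p = 0.392) or native (0.445), without miR-21 methylated (0.153) or native (0.176), and in 4 other settings, and without the 2 doubtful methylated arrays it was -0.69 (limma adjusted p = 0.0041).

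SERTAD1, a transcriptional cofactor that binds CDK4, ran the other way with miR-200c. Its values were 9.83 methylated and 9.83 native with miR-200c, 9.44 methylated and 9.50 native with miR-21, 9.13 labelled methylated and 9.33 native with let7a, 9.54 labelled methylated and 8.94 native with miR-17, against 9.64 with the negative control. Both miR-200c arrays lay above the other 7, and the lowest values were those of miR-17 native and of the array labelled let7a methylated. The miR-200c difference from the other 3 was 0.52 (SE 0.17, limma adjusted p = 0.185). Without the 2 doubtful methylated arrays, SERTAD1 was higher with miR-200c by 0.60 (limma adjusted p = 0.0078) and lower with miR-17, then 1 array, at -0.62 (limma adjusted p = 0.0355). The kinase PLK3 was the 1 member on which both miR-21 arrays lay above the other 7, at 8.37 methylated and 8.32 native, against 8.01 to 8.15 on the other arrays. Over all features 3.24% showed that order, close to 1 of 27.

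**Figure D2:**
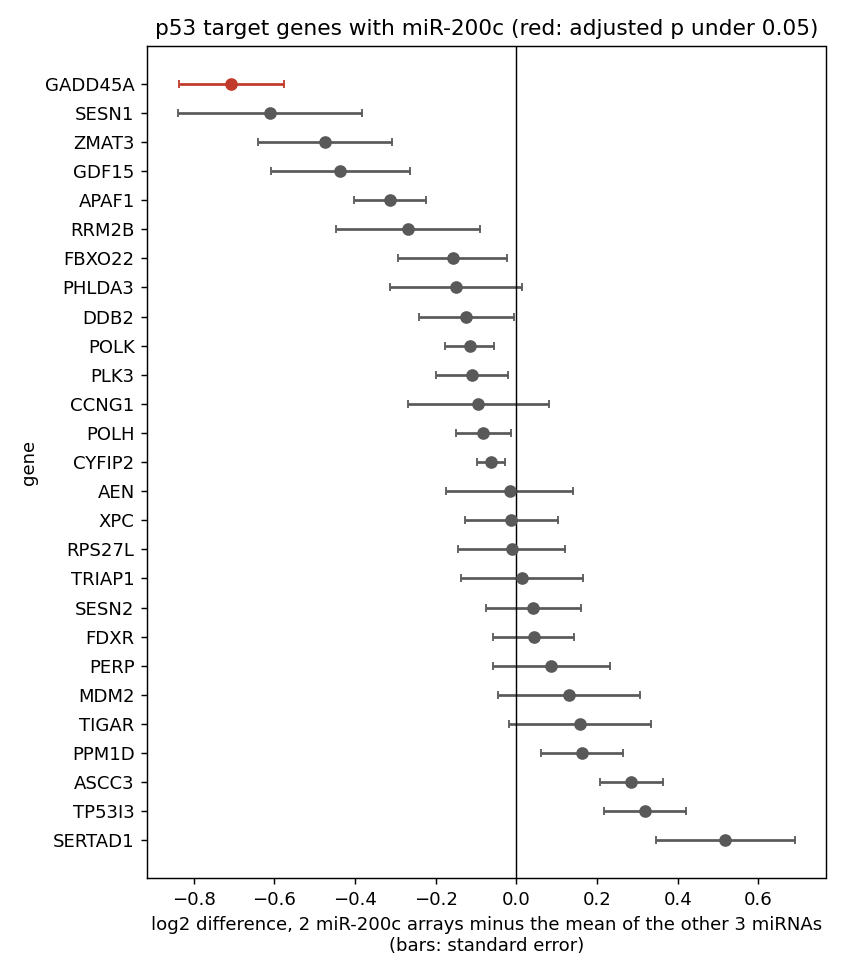
Log2 difference of the 2 miR-200c arrays from the mean of the other 3 miRNAs for each of the 27 p53 target genes, with the standard error as bars, from limma over 8 arrays. GADD45A, in red at -0.71, is the 1 gene with an adjusted p under 0.05, and 10 genes are positive and 17 negative.

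The metabolism and oxidative stress genes did not share a direction. SESN1, a sestrin that lowers growth signalling through TORC1, had the widest range of the members detected on all 9 arrays, 1.47. Its log2 intensities were 7.28 methylated and 6.76 native with miR-200c, 7.16 methylated and 7.19 native with miR-21, 7.49 labelled methylated and 8.23 native with let7a, 8.03 labelled methylated and 7.69 native with miR-17, against 7.78 with the negative control. The 2 miR-200c and the 2 miR-21 arrays were the 4 lowest, and the 2 above the control were let7a native and the methylated array with the miR-17 label. The miR-200c difference from the other 3 was -0.61 (SE 0.23, limma adjusted p = 0.229). It was -0.28 without miR-200c native (limma adjusted p = 0.916) and -0.94 without miR-200c methylated (limma adjusted p = 0.435). Without the 2 doubtful methylated arrays, SESN1 was lower with miR-200c at -0.76 (limma adjusted p = 0.00141) and with miR-21 at -0.55 (0.0399), and higher with let7a at 1.02 (0.00451), where let7a is 1 array and the spread comes from the other miRNAs. SESN2, a related sestrin, kept within 0.28 over the 9 arrays.

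TP53I3 and FDXR were above the negative control on all 8 miRNA arrays. TP53I3, a quinone oxidoreductase of the oxidative stress response, had 7.84 methylated and 7.94 native with miR-200c, 7.54 methylated and 7.72 native with miR-21, 7.46 labelled methylated and 7.54 native with let7a, 7.68 labelled methylated and 7.49 native with miR-17, against 7.30 with the negative control. The miR-200c arrays were the 2 highest, and the miR-200c difference from the other 3 was 0.32 (SE 0.10, limma adjusted p = 0.169), which passed without the 2 doubtful methylated arrays (0.38, limma adjusted p = 0.0159). The mean of both TP53I3 probes gave 0.17. The second probe had a smaller spread, with 7.29 methylated and 7.24 native with miR-200c, 7.17 methylated and 7.30 native with miR-21, 7.26 labelled methylated and 7.18 native with let7a, 7.35 labelled methylated and 7.24 native with miR-17, against 7.08 with the negative control. FDXR, a reductase that feeds electrons to mitochondrial cytochromes, had 8.33 methylated and 8.45 native with miR-200c, 8.18 methylated and 8.30 native with miR-21, 8.45 labelled methylated and 8.40 native with let7a, 8.41 labelled methylated and 8.35 native with miR-17, against 8.07 with the negative control. All miRNA arrays lay 0.11 to 0.38 above the control for FDXR, and both miR-21 arrays were the lowest of them. TP53I3 and FDXR fall outside the rule for named genes and were picked after their values were seen. TIGAR, which lowers glycolytic flux, stayed within 0.15 of the control except on miR-17 native, at -0.51.

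Among the repair and nucleotide supply genes, DDB2 was above the control on all 8 arrays. DDB2 encodes the damage recognition subunit that starts repair of ultraviolet lesions. On the log2 scale it had 9.08 methylated and 9.03 native with miR-200c, 8.93 methylated and 8.81 native with miR-21, 9.31 labelled methylated and 9.52 native with let7a, 9.18 labelled methylated and 9.32 native with miR-17, against 8.62 with the negative control. The arrays labelled let7a and miR-17 were the 4 highest and miR-21 native the nearest to the control, at 0.19. The let7a difference from the control was 0.79 (SE 0.18, limma adjusted p = 0.699), and 0.94 without the 2 doubtful methylated arrays, then 1 array against 1 (limma adjusted p = 0.0396). RRM2B, the p53-controlled subunit of ribonucleotide reductase, had 7.79 methylated and 7.77 native with miR-200c, 7.58 methylated and 7.86 native with miR-21, 7.98 labelled methylated and 8.49 native with let7a, 8.41 labelled methylated and 7.98 native with miR-17, against 7.82 with the negative control. RRM2B was highest on let7a native, 0.67 above the control, and on the methylated array with the miR-17 label, 0.59 above it, and the other 6 were within 0.24 of it. Without the 2 doubtful methylated arrays RRM2B was 0.62 higher with let7a, then 1 array, than with the other 3 miRNAs (limma adjusted p = 0.0277, with the spread from the miR-200c and miR-21 pairs). Over the 9 arrays the damage sensor XPC ranged over 0.32, the bypass polymerase POLK over 0.31, its relative POLH over 0.26 and the helicase ASCC3 over 0.43. ASCC3 was higher on both miR-200c arrays than on the other 7, with a difference of 0.29 from the other 3 miRNAs (limma adjusted p = 0.117) and of 0.32 without the 2 doubtful methylated arrays (limma adjusted p = 0.013). POLK was then also called with miR-200c, at -0.17 (limma adjusted p = 0.0451).

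Of the cell death and survival genes, RPS27L stood highest above the control. RPS27L encodes a ribosomal protein paralogue that is known to bind MDM2. Its log2 intensities were 10.57 methylated and 10.58 native with miR-200c, 10.74 methylated and 10.47 native with miR-21, 10.54 labelled methylated and 10.53 native with let7a, 10.50 labelled methylated and 10.73 native with miR-17, against 9.97 with the negative control. The 8 miRNA arrays lay together, 0.51 to 0.77 above the control, so that the control stood apart from all of them. The mean of the 4 miRNAs minus the control was 0.62 for RPS27L (SE 0.17, limma unadjusted p = 0.0097, adjusted p = 0.904), 0.53 for DDB2 (SE 0.15, adjusted p = 0.961), 0.35 for TP53I3 (SE 0.13, adjusted p = 0.9998) and 0.29 for FDXR (SE 0.13, adjusted p = 0.9998). These 4 are 14.8% of the 27 members, and 11.2% of all features were above the control on all 8 arrays. Each of the 4 was above the control on 8 of 8 arrays in all 7 alternative settings for the values, with FDXR at 0.0067 on miR-21 methylated under median scaling.

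**Figure D3:**
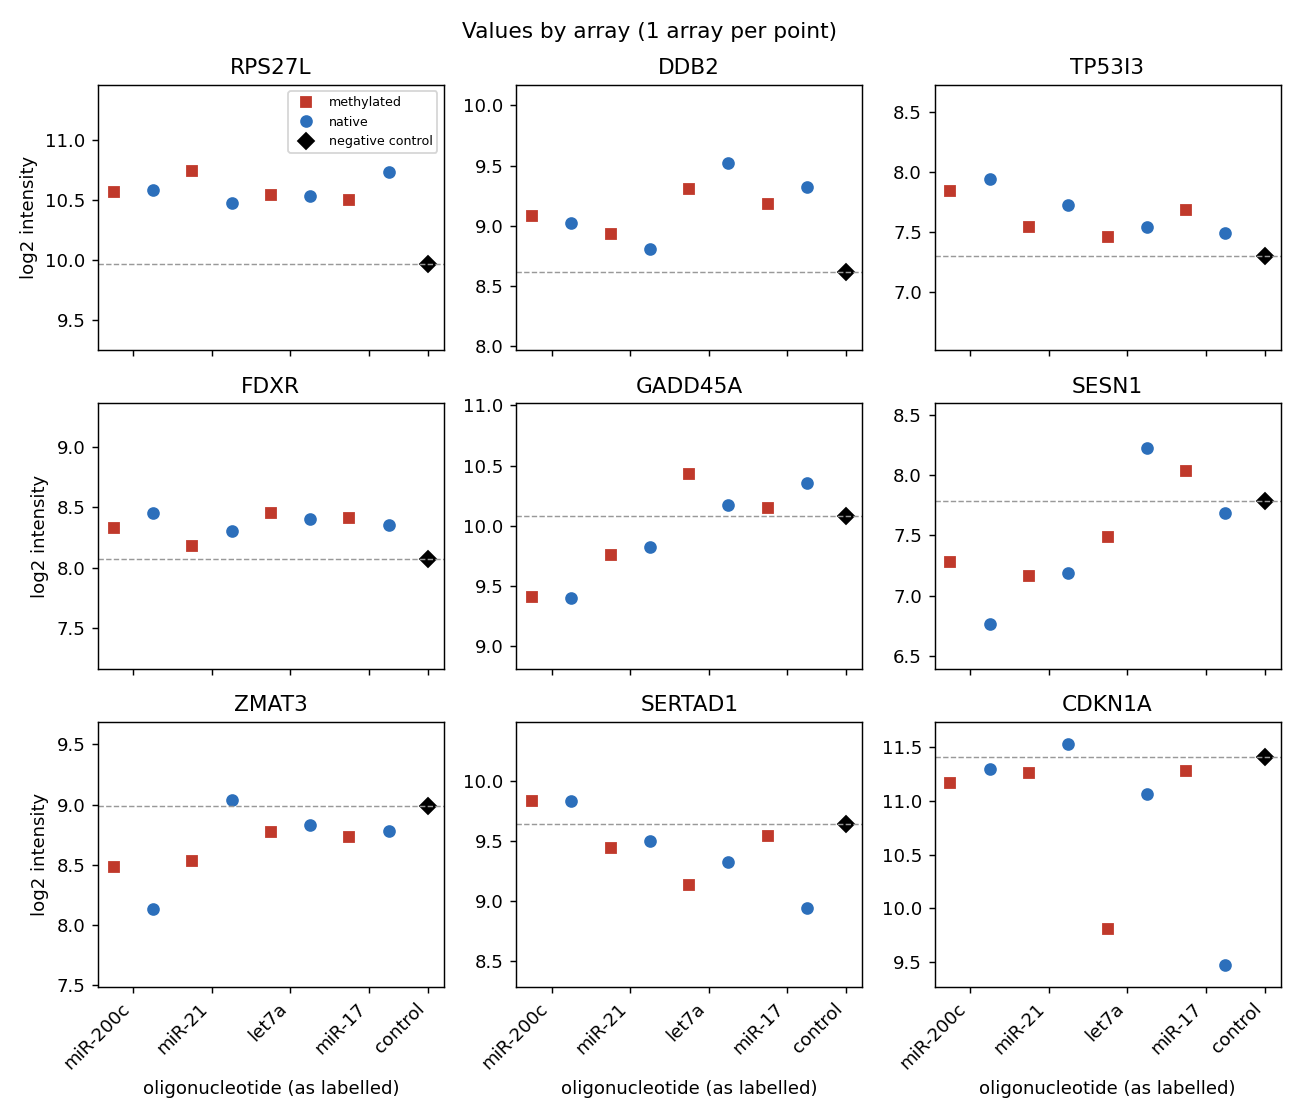
Log2 intensity on each of the 9 arrays (1 point per array, methylated in red squares, native in blue circles, negative control as a black diamond with a dashed line at its level) for 8 p53 target genes and CDKN1A. For RPS27L, DDB2, TP53I3 and FDXR all 8 miRNA arrays lie above the line, and CDKN1A is lowest on miR-17 native and the array labelled let7a methylated.

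The 4 genes shared their place above the 1 control array. Each was highest on a different miRNA array, but this order was not stable. For FDXR the array labelled let7a methylated had 8.452 and miR-200c native 8.451. In the deposited table RPS27L, TP53I3 and FDXR were all highest on miR-200c methylated, where that table shifts the median of all features by 0.54. The promoters of the members were read for the element that p53 binds. Their transcripts' start windows, 250 bases before to 50 after the start, come from RefSeq (GRCh38.p14), and capitals mark a match to the p53 consensus decamer, which reads the same on both strands.
DDB2: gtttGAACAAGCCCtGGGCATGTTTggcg
RPS27L: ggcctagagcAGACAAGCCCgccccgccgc
FDXR: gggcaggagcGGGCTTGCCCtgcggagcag
SESN1: attgtcgtctGGACAAGTCTccacaagtca
DDB2 (chr11:47214975-47215003, plus strand) holds a pair of decamers from base 6 of the transcript. RPS27L (chr15:63157517-63157546, minus strand) holds 1 decamer that begins 59 bases before the start, FDXR (chr17:74872986-74873015, minus strand) 1 that begins 11 before it, and SESN1 (chr6:109009018-109009047, minus strand), shown for its wide range, 1 that begins 49 before it. No match was found in the TP53I3 window. Of 36 windows of the 25 members that RefSeq's table held, 6 had a decamer (16.7%), the other 2 in AEN and PLK2, against 6.63% of 35116 windows. A pair of decamers at most 13 bases apart was found in 1 of the 36 (2.78%), that of DDB2, against 0.0285% of all windows. Some members had several windows, so windows are not independent. Since the members were chosen as known p53 targets, these shares say nothing about the arrays. A match describes the letters in this window only.

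ZMAT3, an RNA-binding zinc finger protein that restrains growth, had 8.49 methylated and 8.13 native with miR-200c, 8.54 methylated and 9.04 native with miR-21, 8.78 labelled methylated and 8.83 native with let7a, 8.73 labelled methylated and 8.78 native with miR-17, against 8.99 with the negative control. Both miR-200c arrays were the lowest of the 9 for ZMAT3, and miR-21 native was above the control by 0.05, where median scaling gave -0.01. The miR-200c difference from the other 3 was -0.47 (SE 0.17, limma adjusted p = 0.204), -0.20 without miR-200c native and -0.75 without miR-200c methylated. APAF1, the scaffold of the apoptosome, was also lowest on the miR-200c arrays, at 6.80 methylated and 6.85 native, against 6.90 to 7.34 on the other 7. Its difference was -0.31 (SE 0.09, limma adjusted p = 0.131), and -0.26 without the 2 doubtful methylated arrays (limma adjusted p = 0.0319). Both miR-200c arrays were below the other 7 for 5 of the 27 members, or 18.5% (GADD45A, APAF1, CYFIP2, ZMAT3 and GDF15), a pattern of 10.3% of features, and above them for 3 (SERTAD1, TP53I3 and ASCC3), a pattern of 11.1%. For let7a, as labelled, 0 members had both arrays below (2.84% of features) or above (1.78%) the other 7, for miR-17 0 were below (1.67%) or above (4.19%), and for miR-21 0 were below (4.01%).

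PHLDA3, which holds back the survival kinase AKT, had 8.31 methylated and 8.19 native with miR-200c, 8.09 methylated and 8.36 native with miR-21, 8.58 labelled methylated and 8.23 native with let7a, 8.36 labelled methylated and 8.78 native with miR-17, against 8.27 with the negative control. Its 2 highest arrays were miR-17 native and the array labelled let7a methylated, 0.51 and 0.31 above the control, and miR-21 methylated was the lowest. The other members of the role stayed closer together. The membrane protein PERP ranged over 0.51 on the 9 arrays, the nuclease AEN over 0.50, TRIAP1, a small inhibitor of apoptosis, over 0.59, and CYFIP2, a regulator of the actin cytoskeleton, over 0.12.

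GDF15, a secreted cytokine of the stress response, was near background. Its log2 intensities were 5.93 methylated and 5.87 native with miR-200c, 6.18 methylated and 6.18 native with miR-21, 6.76 labelled methylated and 6.13 native with let7a, 6.17 labelled methylated and 6.61 native with miR-17, against 6.06 with the negative control, and it was not detected on miR-200c native, where the value is only a bound. The array labelled let7a methylated and miR-17 native were the 2 highest, 0.70 and 0.55 above the control, and the miR-200c arrays were the lowest. A second probe of GDF15, not detected on the control, ranged only between 5.91 and 6.05 and showed that order only in part. It was again highest on the array labelled let7a methylated, but miR-17 native (5.997) lay below miR-200c native (6.002). The miR-200c difference from the other 3 was -0.44 for the first probe (SE 0.17, limma adjusted p = 0.253). The calls of GDF15 without the 2 doubtful methylated arrays rest on this probe near background, and those with miR-17 also on 1 miR-17 array, so their size and p are not given.

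CDKN1A was low on 2 arrays, and the other p53 targets lay on both sides of the control there. CDKN1A had log2 intensities of 11.17 methylated and 11.29 native with miR-200c, 11.26 methylated and 11.53 native with miR-21, 9.81 labelled methylated and 11.07 native with let7a, 11.28 labelled methylated and 9.47 native with miR-17, against 11.41 with the negative control. It differed from the control by -1.94 on miR-17 native and by -1.61 on the array labelled let7a methylated, and by -0.35 to 0.12 on the other 6. Median scaling turned the 0.12, that of miR-21 native, to -0.0038. With the labels as given, its difference from the other 3 miRNAs was -0.64 for miR-17 (SE 0.51, limma adjusted p = 0.855) and -0.56 for let7a (SE 0.51, limma adjusted p = 0.89). For miR-17 without the 2 doubtful methylated arrays it was -1.82 (limma adjusted p = 3.37e-04), which sets miR-17 native alone against the rest, with the spread from the miR-200c and miR-21 pairs.

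On miR-17 native, 12 of the 27 p53 targets (44.4%) were below the control, beside 45.4% of all features. The members' median difference was 0.08, beside 0.012. It did not hold its direction over settings. Median scaling gave -0.034, beside -0.013 over all features, and leaving out the filter on dim probes gave 0.0002, beside 0.006. On the array labelled let7a methylated, 8 were below (29.6%, beside 47.5%) and the median was 0.10, beside 0.007. Over 7 alternative settings the share of members below was 22.2% to 55.6% on miR-17 native and 25.9% to 40.7% on the array labelled let7a methylated. Past a difference of 0.5 (1.41-fold) on miR-17 native, DDB2, PHLDA3, RPS27L and GDF15 were higher, 4 of 27 beside 1.66% of features, and SERTAD1 and TIGAR were lower, 2 of 27 beside 2.77%. On the array labelled let7a methylated, DDB2, RPS27L and GDF15 were higher (1.92% of features) and SERTAD1 was lower (2.94%). On the other array of each label, the same threshold gave DDB2, RRM2B and RPS27L as higher and no member as lower, both on the methylated array with the miR-17 label (1.49% of features higher, 2.03% lower) and on let7a native (1.54% higher, 1.61% lower). So SERTAD1 was the member that was past 0.5 and low on both arrays with low CDKN1A. MDM4, the p53 inhibitor related to MDM2, was 0.48 above the control on miR-17 native and 0.30 above it on the array labelled let7a methylated, and within 0.16 of it on the other 6. Other pathway genes differed as much on these arrays. CHEK1 was at 0.47 on miR-17 native and 0.61 on the array labelled let7a methylated, and the p53 target PMAIP1 at 0.57 and 0.46. TNFRSF10B was lower, at -0.56 on miR-17 native and -0.59 on the array labelled let7a methylated, and also on miR-200c methylated (-0.37) and native (-0.48). FAS, at -0.66 and -0.35, and BTG2, at -0.48 and -0.38, were lower on these arrays too, but both were lowest on the array labelled miR-17 methylated. CHEK1, PMAIP1 and TNFRSF10B were picked after their values were seen. These are single arrays without a test.

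**Figure D4:**
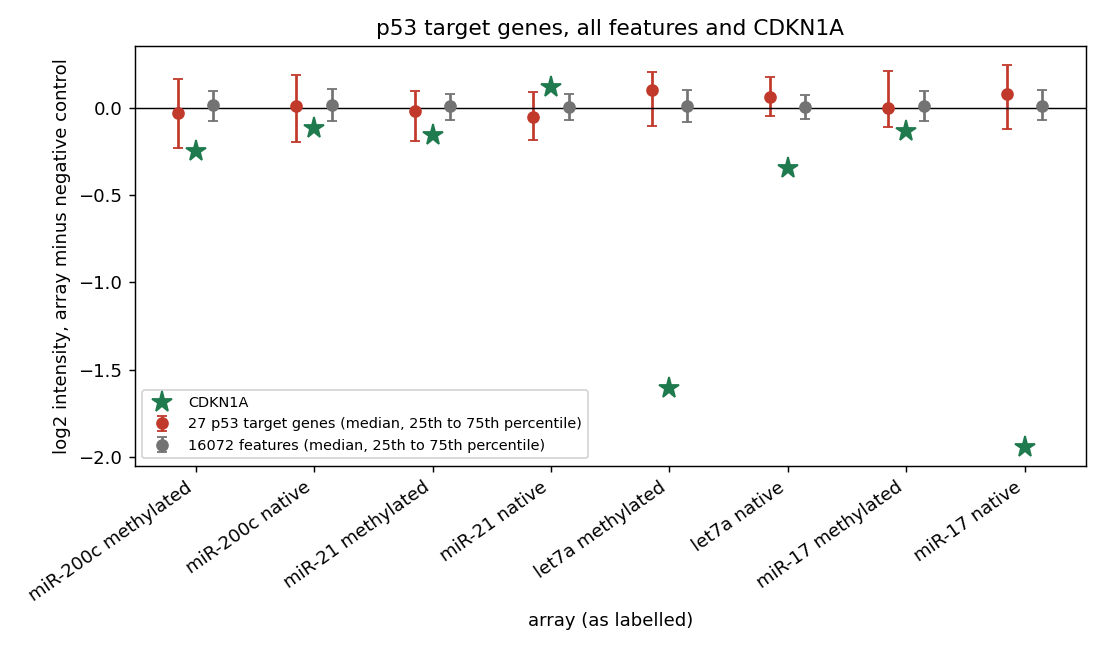
Log2 intensity of each miRNA array minus the negative control for CDKN1A (green star), for the 27 p53 target genes and for all 16072 features (circles at the median, bars from the 25th to the 75th percentile). CDKN1A is at -1.94 and -1.61 on miR-17 native and the array labelled let7a methylated, where the medians of the 27 genes are 0.08 and 0.10. Under median scaling (not shown) these medians are -0.03 and 0.05.

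The same 5 members were past 0.5 from the control on both miR-200c arrays. There TP53I3 and RPS27L were higher and GADD45A, SESN1 and ZMAT3 were lower, beside 2.26% of features higher and 3.33% lower on the methylated array and 2.56% higher and 3.85% lower on the native one. On miR-21 methylated RPS27L was higher (1.19% of features) and SESN1 lower (1.18%), and on miR-21 native RPS27L was higher (1.02%) and MDM2 and SESN1 lower (0.765%).

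Methylated and native oligonucleotides were compared over the 4 pairs, and limma called 0 of the 27 members and 0% of features, with 0 members and 108 features at an unadjusted p under 0.05. The median difference of methylated minus native was -0.0035 over the members and -0.0014 over all features. Within single pairs, without a test, few members were past 0.5. For miR-200c SESN1 was 0.52 higher methylated than native (0.964% of features higher) and no member was lower (0.174%). For miR-21 MDM2 was 0.56 higher (0.23%) and ZMAT3 was lower at -0.50 (0.404%). Between the methylated and native arrays with the let7a label, GDF15 was higher at 0.63 (2.7%), and SESN1, RRM2B and PERP were lower at -0.74, -0.51 and -0.51 (3.47%). Between those with the miR-17 label, SERTAD1 was higher at 0.60 and TIGAR at 0.57 (3.37%) and no member was lower (2.51%).

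Another 38 p53 pathway genes past the filter, 13 regulators and 25 further targets, were read from a list that does not overlap the 31. With miR-200c against the other 3 miRNAs, limma called 2 of the 38, beside 3.09% of all features. TP73, a p53 family member, fell by 0.49 (SE 0.05, adjusted p = 0.0111), and BTG2, an antiproliferative target of p53, rose by 0.79 (SE 0.09, adjusted p = 0.0135). With the 2 doubtful methylated arrays left out, TP73 was at -0.49 (limma adjusted p = 2.98e-04) and BTG2 at 0.83 (limma adjusted p = 1.35e-04). With miR-200c, BTG2 differed from the control by 0.20 methylated and 0.34 native, and on the other 6 arrays by -0.59 to -0.38. In the other 9 comparisons limma called 0 of the 38. Above the control on all 8 miRNA arrays were 6 of the 38, beside 11.2% of all features: the kinases CHEK1 and CHEK2, the death genes BAX and BBC3, PRKAB1 and IGFBP3. Below it on all 8 were 4, beside 6.91%: HIPK2, TP73 and the death receptors FAS and TNFRSF10B. FAS was the widest of these, at -0.13 methylated and -0.60 native with miR-200c, -0.30 methylated and -0.57 native with miR-21, -0.35 labelled methylated and -1.02 native with let7a, and -1.69 labelled methylated and -0.66 native with miR-17.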

How the data were processed

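Each of 9 one-colour 3D-Gene arrays holds 27456 spots, and per the file headers each value is a spot's median intensity at 635 nm without background subtraction. The authors also deposited a table of intensity per probe, made by steps not given in the sources used here. Each of its columns was linear in the spot intensity of its array (r = 1) and had a median of 25. It was used only as an alternative. Probe names came from the platform annotation: 20236 of 24460 probes had 1 gene symbol and 4224 stayed unnamed, and 2899 symbols were updated with a gene table of GRCh38.p14 used for names only.

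Spot intensities were corrected with normexp (offset 50) and quantile normalized in limma 3.58.1 (R 4.3.3), then put on a log2 scale. Control spots and 9 probes marked as outliers were left out. Detected means above the mean plus 2 SD of 2680 blank spots. Probes detected on at least 5 arrays were kept (17684 probes, 16072 features, 13391 named), with the highest-mean probe of a gene used. The additive fit over 8 miRNA arrays had the terms miRNA and form, an intensity trend and 3 residual degrees of freedom, so the miRNA is the block that pairs methylated and native arrays. A fit over 9 arrays gave the contrasts with the negative control. Adjusted p-values are limma's, over all features, with a threshold of 0.05. The fit was tested on simulated data with independent noise for each feature and no array made unlike its pair. That test does not cover the doubtful arrays. The number of arrays limits the precision. Median detected intensity was 98.2 to 142 per array, against blank means of 31.4 to 46.8.

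Named genes were members past a threshold, the 8 widest-ranging members detected on all 9 arrays, and MDM2, CCNG1, GADD45A, SESN1 and GDF15. The members and lists were chosen with earlier results of these data known. Promoter and miRNA sequences are RefSeq's. Alternatives changed the scaling, offset, background, probe choice, filter, variance trend, model terms, source table and arrays.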

Additional observations from a re-analysis of the deposited data

How the results depend on the processing

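The count of 1 member called with miR-200c against the other 3 miRNAs was 0 under median scaling, without the filter on dim probes and without the intensity trend, 2 without the form term and 8 without the 2 doubtful methylated arrays. Leaving out 1 array gave 0 to 3. The share of all features called moves with the setting too, and is given only for the main fit and the fit without these 2 arrays. A higher count is therefore no gain of the members by itself. GADD45A was lost with a limma adjusted p of 0.0501 under median scaling, 0.0551 without the filter, 0.0528 without the trend and 0.374 in the deposited table. Without these 2 arrays, the counts were 1 for miR-21, 2 for let7a and 2 for miR-17 against the other 3, and 5 for miR-200c, 1 for let7a and 1 for miR-17 against the negative control. Leaving out single arrays kept the other 9 counts at 0 to 0. The cause was not tested. The share of members below the negative control was 22.2% on miR-200c methylated and 22.2% on miR-17 native in the deposited table, which shifts the median of all features by 0.54 and 0.26 on these arrays. Small miR-200c differences turned direction: leaving out 1 array put MDM2 between -0.0056 (without miR-200c native) and 0.27, and CCNG1 between -0.21 and 0.017 (without the array labelled let7a methylated), and CCNG1 was at 0.037 in the deposited table. In the deposited table the 1 member called with miR-200c was GDF15, at -1.91 (limma adjusted p = 1.1e-05), in place of GADD45A. Blank subtraction put GDF15 at -2.08 (limma adjusted p = 0.0845). These values rest on the GDF15 probe near background that was not detected on miR-200c native. The second GDF15 probe did not have both miR-200c arrays lowest. Empty cells of the deposited table were set to its lowest value. SESN1 passed without the array labelled let7a methylated (-0.78, adjusted p = 0.0275), SERTAD1 without the one labelled miR-17 methylated (0.63, adjusted p = 0.0382) and GDF15 without let7a native (-0.56, adjusted p = 0.0363). The miRNA is the block for the methylated and native pairs, and with no such replicate block the count for methylated minus native was 0, as in the paired fit.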
